A study of Mus musculus with 30 samples.

Results

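The genes described here encode the protein subunits of the mitochondrial respiratory chain and ATP synthase. They were taken by name: symbols that start with mt-Nd, mt-Co, mt-Cytb or mt-Atp, the numbered Ndufa, Ndufb, Ndufc, Ndufs and Ndufv genes, Cox4 to Cox8, Uqcr, Atp5 and Sdha to Sdhd, without pseudogene names in -ps or names that end in os. Of the subventricular zone (SVZ) genes 95 had such names, and of the striatum genes 96. A name was analysed in a tissue where 3 or more of its libraries had over 1 CPM, the usual unit of counts scaled to library size. Levels below are CPM with TMM scaling factors. In each tissue 87 names passed, 7 encoded on the mitochondrial chromosome and 80 in the nucleus, and 85 passed in both tissues. They stood among 16375 genes tested in the SVZ and 15419 in the striatum. Atp5s, Atp5sl and Cox7a2l match by name, although they are not core subunits of a complex.

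Each of 15 C57Bl/6 mice gave 1 RNA-seq library of SVZ tissue and 1 of striatum, and the mouse is the replicate. The NestinTK transgene places a viral thymidine kinase under the second intron enhancer of Nestin, so that ganciclovir (GCV), which the kinase turns toxic, kills dividing cells that carry it. Adult mice (6 to 8 weeks old) received GCV or PBS from a subcutaneous pump for 4 weeks. Loss of cells needs both transgene and drug, so 5 NestinTK+ GCV mice were ablated, and the 10 controls were 3 mice with GCV and no transgene (NestinTK- GCV), 3 with neither (NestinTK- PBS) and 4 with the transgene alone (NestinTK+ PBS), where NestinTK- means wild type. The mice are named A1 to A5, G1 to G3, P1 to P3 and T1 to T4 in that order of groups. The SVZ kit, SMART-Seq v4, amplifies whole transcripts, and the striatum kit, QuantSeq, reads their 3′ ends, so that levels were not compared between the tissues. GCV-treated mice had the lower library numbers in both tissues, so that GCV and the order of library numbering cannot be told apart.

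The SVZ libraries held 8360810 to 9595103 counts in ablated mice and 8947137 to 21056005 in controls, and the striatum libraries 2626962 to 3371033 and 2780471 to 4693441. All 6 neuroblast markers tested were lower in the ablated SVZ at an unadjusted p under 0.05, with a summed level of 59.4 to 198 CPM against 176 to 546 CPM in controls. The 8 medium spiny neuron markers summed to 7814 to 9134 CPM in the ablated striatum and 3996 to 10702 CPM in the controls. In the SVZ they summed to 3210 to 10574 CPM in ablated mice and 4056 to 8807 CPM in controls. Among the striatum libraries the control T4 had the lowest level of each of these 8 markers. It also had the highest level of Ttr, at 1351 CPM, and the highest share of counts in nuclear members, at 2.12%. The labels name neural precursor cells for the SVZ samples, but markers of striatal neurons were high in every SVZ library. In 3 control SVZ libraries, P1, P2 and T1, Ttr, the transthyretin gene that marks choroid plexus, stood at 45489, 100213 and 100613 CPM, against at most 755 CPM in any other SVZ library. In the SVZ library of G3 the mitochondrial genes were lowest, with mt-Nd1 at 3277 CPM against 5329 to 8018 CPM elsewhere. In a piece of tissue, fewer cells of a type and less RNA per cell cannot be told apart.

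Complexes I, III and IV pass electrons from NADH and succinate to oxygen and pump protons, complex II (succinate dehydrogenase) feeds electrons in from the citric acid cycle, and complex V (ATP synthase) uses the proton gradient to make ATP. Mitochondrial DNA encodes 13 of the subunits, in complexes I, III, IV and V, and they are transcribed as long precursors that are cut into single RNAs. All other subunits, and the whole of complex II, are encoded in the nucleus and imported. In the adult SVZ, activated neural precursors and neuroblasts are known to rely more on oxidative phosphorylation than quiescent stem cells do, and striatal neurons use it to pay for synaptic signalling.

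Of the 13 mitochondrial names, 6 adjacent genes had almost no counts in any library. They are mt-Co2, mt-Atp8, mt-Atp6, mt-Co3, mt-Nd3 and mt-Nd4l, which lie side by side at chrM:7013-10173 (GRCm38). Summed over all 15 SVZ libraries they had 5, 0, 0, 5, 1 and 0 counts, and over all 15 striatum libraries 5, 0, 4, 7, 0 and 0. The gene on one side, mt-Co1, had 30220 to 83214 counts per SVZ library and 3221 to 6154 per striatum library. The gene on the other side, mt-Nd4, had 25974 to 89166 and 15431 to 39808. The drop began and ended at gene borders and was there in every mouse, treated or not.

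For 5 of these 6 genes, all but mt-Atp8, a nuclear copy that matches 100 bases or more is annotated on chromosome 1. These copies lie in a row of unprocessed pseudogenes. Gm28661 matched 681 of the 684 bases of mt-Co2 at 100% identity, Gm10925 678 bases of mt-Atp6 at 100%, Gm28437 783 bases of mt-Co3 at 100% and Gm10222 294 bases of mt-Nd4l at 100%. Gm28438 matched 345 bases of mt-Nd3 with 1 difference. A read that lies wholly within bases without a difference has 2 places of origin in the genome that cannot be told apart by sequence. How the counting treated reads with several matches is not given in the sources used here, so the part this plays in the missing counts was not tested. The copies themselves had 0 to 24 counts in an SVZ library, except Gm28438, which had 446 to 1648 (6 to 35 in the striatum). The first 60 bases of the pairs with no difference and with 1 difference are shown because they carry this point. They were read from the GRCm38 genome at chrM:7013-7072 (plus strand) and chr1:24615506-24615565 (minus strand) for mt-Co2 and Gm28661, and at chrM:9459-9518 and chr1:24613060-24613119 for mt-Nd3 and Gm28438, and the capital marks the differing base.
mt-Co2: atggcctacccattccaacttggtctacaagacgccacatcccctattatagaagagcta
Gm28661: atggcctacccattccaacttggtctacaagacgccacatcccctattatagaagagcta
mt-Nd3: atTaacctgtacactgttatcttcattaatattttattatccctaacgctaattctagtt
Gm28438: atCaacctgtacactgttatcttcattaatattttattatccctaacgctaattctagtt
Counted from the first base of mt-Nd3, the difference is T3C. Gm28439 also matched 63.6% of mt-Nd4 at 100% identity, and 31.3% of mt-Co1 was covered at 99% or more, so the counts of these 2 genes may hold part of their reads only. The best copies of the other 4 mitochondrial genes with a match had 92.3% to 96.7% identity. No annotated nuclear transcript matched mt-Nd1 or mt-Atp8 over 100 bases or more, the shortest match kept. mt-Atp8 ends at chrM:7969 and mt-Atp6, which has a copy, starts at chrM:7927. A match over these shared bases alone would not have been kept. All that follows on mitochondrial members rests on the 7 that were counted.

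**Figure D1:**
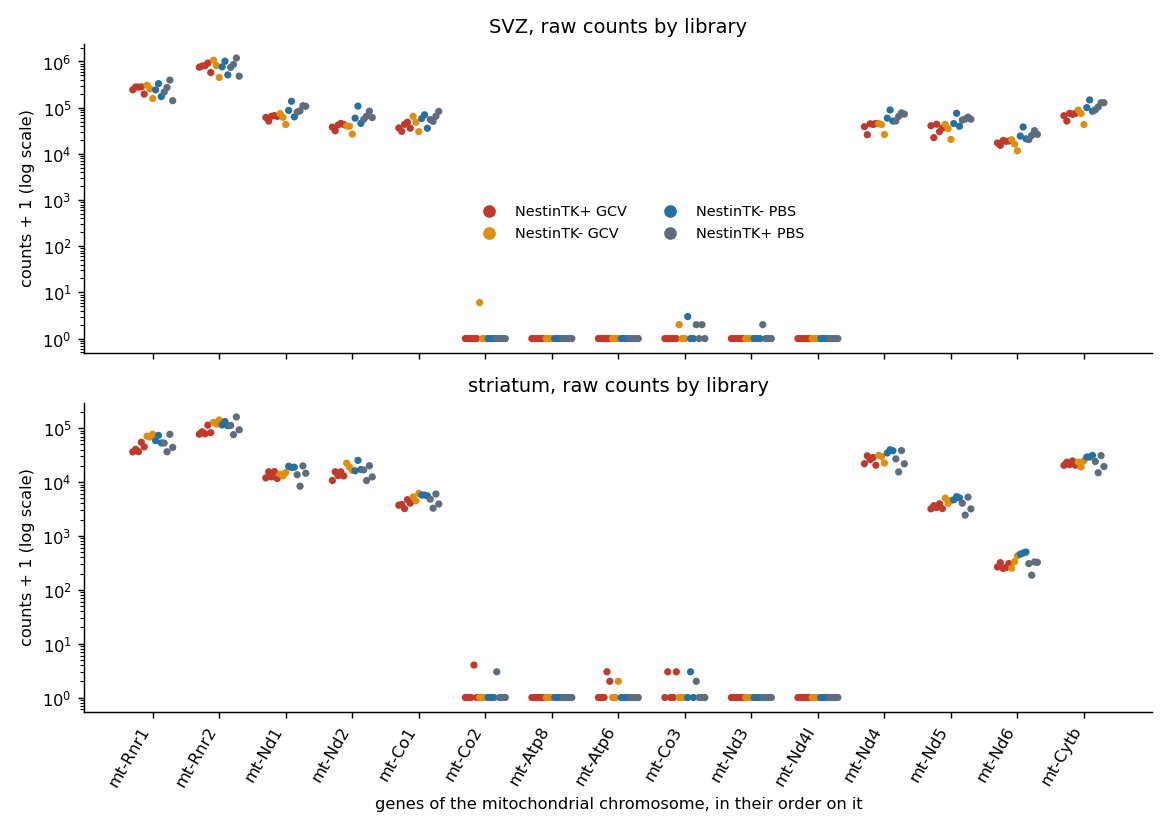
Counts of the genes of the mitochondrial chromosome in the order in which they lie on it, plotted as counts + 1 on a log axis, with 1 point per library and a colour for each group, for the SVZ (above) and the striatum (below). The 6 genes from mt-Co2 to mt-Nd4l sit at 0 to 5 counts in all 30 libraries, while mt-Co1 beside them has 3221 or more in every library.

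In the SVZ, most nuclear encoded respiratory chain genes stood slightly lower in ablated than in control mice and the counted mitochondrial ones slightly higher, and no single gene passed adjustment over all genes. Of the 80 nuclear members, 70 had a log2 fold change (ablated minus control) below 0, with a median of -0.19, whereas 8500 of all 16375 genes tested were below 0, with a median of -0.027. All 7 mitochondrial members were above 0, with a median of 0.20. At an unadjusted p under 0.05 (edgeR quasi-likelihood test), 13 nuclear members were lower, against 6.09% of all genes, and none was higher, against 3.73%. Of the mitochondrial members, mt-Nd6 was higher. No member reached an adjusted p under 0.05 (lowest 0.347), against 0.00611% of all genes, or the study's thresholds of an unadjusted p of at most 0.01 and a 2-fold change, against 1.59%. In the same libraries 1 of 3 microglia markers and 1 of 3 endothelial markers were higher and all 6 neuroblast markers lower at an unadjusted p under 0.05. All 5 choroid plexus markers were lower as well, with a summed level of 18.3 to 233 CPM in ablated mice and 11.9 to 102437 CPM in controls. Of 4 ependymal markers 2 were lower (sum 20.2 to 168 CPM against 72.2 to 209 CPM), and of 2 markers of dividing cells 1 was lower (5.02 to 29.5 CPM against 4.33 to 132 CPM). The part of these cell types in the members' values was not tested.

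These counts depended on which controls were used. Without the 3 Ttr-rich control libraries, 5 nuclear members were lower, the nuclear median was -0.11 and 65 were below 0. With mouse number series as a covariate, 5 were lower as well. The ablated mice all came from one number series and the controls from that series and another, so ablation and series are partly mixed. With an offset in each library for the GC content of transcript ends, an alternative added after the data were seen, 5 were lower and the nuclear median was -0.059. Against the 3 NestinTK- GCV mice alone, 1 member was lower and 3 were higher. In each of these the median of mitochondrial members stayed above that of nuclear members, by 0.35 to 0.67 on the log2 scale, compared with 0.39 over all controls. Over single control libraries the same difference of medians had an SD of 0.35. All of these comparisons share the same ablated mice, and the members of a library were measured together, so they are not independent.

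Complex I takes electrons from NADH. Of its 36 nuclear members in the SVZ, 30 were below 0 (median -0.18) and 5 were lower at an unadjusted p under 0.05. Ndufc2, an accessory subunit of the membrane arm (chr7:97400003-97407802), had the smallest p of all members. It stood at 148, 218, 175, 211 and 155 CPM in ablated mice and from 195 to 349 CPM in controls (median 255), so that the groups overlapped in 2 ablated mice. Its mean was 181 ± 31.8 CPM in ablated mice (SD, n = 5) and 263 ± 46.5 CPM in controls (SD, n = 10). The log2 fold change was -0.54 (SE 0.155, adjusted p = 0.347). Ndufs6, an accessory subunit of the matrix arm, stood at 113, 79.6, 175, 167 and 130 CPM against 150 to 235 CPM (log2 fold change -0.58, SE 0.179, adjusted p = 0.352). The other 3 were accessory subunits of the membrane arm or its base, Ndufb11 (-0.63, adjusted p = 0.385), Ndufa13 (-0.42, adjusted p = 0.385) and Ndufb5 (-0.40, adjusted p = 0.431), of which Ndufb5 had an unadjusted p above 0.05 without A2 or A5. Ndufs1, the large iron-sulphur core subunit, had a log2 fold change of 0.22 (SE 0.261, adjusted p = 0.867), and its libraries ranged from 48.4 to 195 CPM.

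Complex II had 4 members, 3 of them below 0, with a median of -0.37. Sdha, the flavoprotein that binds succinate (chr13:74322254-74350280), stood at 229, 211, 223, 286 and 202 CPM in ablated mice and at 232 to 346 CPM in controls (median 318). Only A4 among the ablated mice reached the control range. The log2 fold change of Sdha was -0.40 (SE 0.132, adjusted p = 0.373), and that of Sdhc, one of the membrane anchors, was -0.57 (SE 0.188, adjusted p = 0.373). Sdhc stood at 66.7 to 96.8 CPM in ablated mice and 90.5 to 185 CPM in controls.

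In complex III, which passes electrons from ubiquinol to cytochrome c, all 8 nuclear members were below 0 (median -0.25) and 3 were lower. Uqcrc2, a core protein of the matrix side (chr7:120635176-120659524), was at 88.2, 89.6, 79.2, 90.6 and 69.5 CPM in the ablated mice. The controls stood between 102 and 150 CPM, so that every ablated mouse lay below every control mouse. No other member separated the groups in this way in the SVZ, compared with 0.256% of all genes in either direction. Its log2 fold change was -0.51 (SE 0.149, adjusted p = 0.347). Uqcrc2 was the member that stayed lower at an unadjusted p under 0.05 without the Ttr-rich libraries (-0.52), with GC offsets (-0.47) and against NestinTK- GCV mice alone (-0.55). Uqcrh, the hinge protein (-0.40, adjusted p = 0.404), and the small subunit Uqcr10 (-0.41, adjusted p = 0.406) were the other 2, and without A3 the unadjusted p of Uqcrh was above 0.05. The Rieske protein Uqcrfs1 had a log2 fold change of -0.073 (SE 0.194, adjusted p = 0.952).

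Complex IV, cytochrome c oxidase, reduces oxygen. Of its 16 nuclear members, 13 were below 0 (median -0.15), and the 2 that were lower at an unadjusted p under 0.05 were isoforms of restricted tissue expression. Cox8b, known from heart and skeletal muscle, stood at 41.1, 59.4 and 49.3 CPM in P1, P2 and T1 and at no more than 1.49 CPM in the other 12 libraries, 9 of which were at 0 counts. Cox6b2, known from testis, stood at 67.4, 41.0 and 70.7 CPM in the same 3 mice and at 1.97 to 13.7 CPM elsewhere. Cox7a1, another muscle form, stood at 11.5, 8.91 and 11.4 CPM there and at 0 to 8.04 CPM elsewhere (log2 fold change -1.86, adjusted p = 0.605). These are the 3 libraries rich in the choroid plexus marker Ttr. Without them, the log2 fold change of Cox6b2 was -0.053, compared with -1.52 (adjusted p = 0.498) with them, and leaving out any 1 of A1 to A5, P1, P2 or T1 also brought its unadjusted p above 0.05. For Cox8b, leaving out any 1 of A1 to A4 did so. The main isoforms did not separate the groups. Cox4i1 stood at 1322 to 1639 CPM in ablated mice and 1043 to 1768 CPM in controls (log2 fold change 0.052, SE 0.122, adjusted p = 0.946).

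Scaled to exon length, the main isoforms of complex IV stood far above their partners in the SVZ. Cox4i1 ranged from 673 to 1141 CPM per kb over the 15 libraries and Cox4i2, the form induced by low oxygen in lung, from 0 to 13.6 CPM per kb. Cox6a1 stood at 812 to 1453 CPM per kb against 0 to 44.3 for the muscle form Cox6a2, Cox6b1 at 529 to 962 against 1.78 to 63.8 for Cox6b2, and Cox8a at 1403 to 2593 against 0 to 165 for Cox8b. For Cox7a2 the range was 424 to 648 CPM per kb and for Cox7a1 0 to 21.6. Cox7b stood at 143 to 269 CPM per kb, and Cox7b2 did not pass the filter in the SVZ. The c-ring genes of ATP synthase encode the same mature protein. On this scale Atp5g3 was highest at 158 to 282 CPM per kb. Atp5g1 followed at 27.2 to 84.8 and Atp5g2 at 9.89 to 22.6, and the 3 ranges did not overlap. The length used joins the exons of all annotated transcripts of a gene, 4912 bases for Atp5g1, 2181 for Atp5g3 and 1675 for Atp5g2. It can exceed that of the transcript expressed, so the order of Atp5g1 and Atp5g3 rests on this choice of length.

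In complex V all 16 members were below 0 (median -0.18), and Atp5g1 was lower at an unadjusted p under 0.05 (-0.51, SE 0.226, adjusted p = 0.464). Its ablated mice stood at 134 to 214 CPM and its controls at 142 to 417 CPM, with the 3 Ttr-rich libraries at 300, 351 and 417 CPM. Without those libraries its log2 fold change was -0.23, and leaving out any 1 of A2, A3, A4, P1, P2, P3 or T1 also brought its unadjusted p to 0.05 or above. Atp5b, the catalytic beta subunit, had a log2 fold change of -0.20 (SE 0.122, adjusted p = 0.627).

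**Figure D2:**
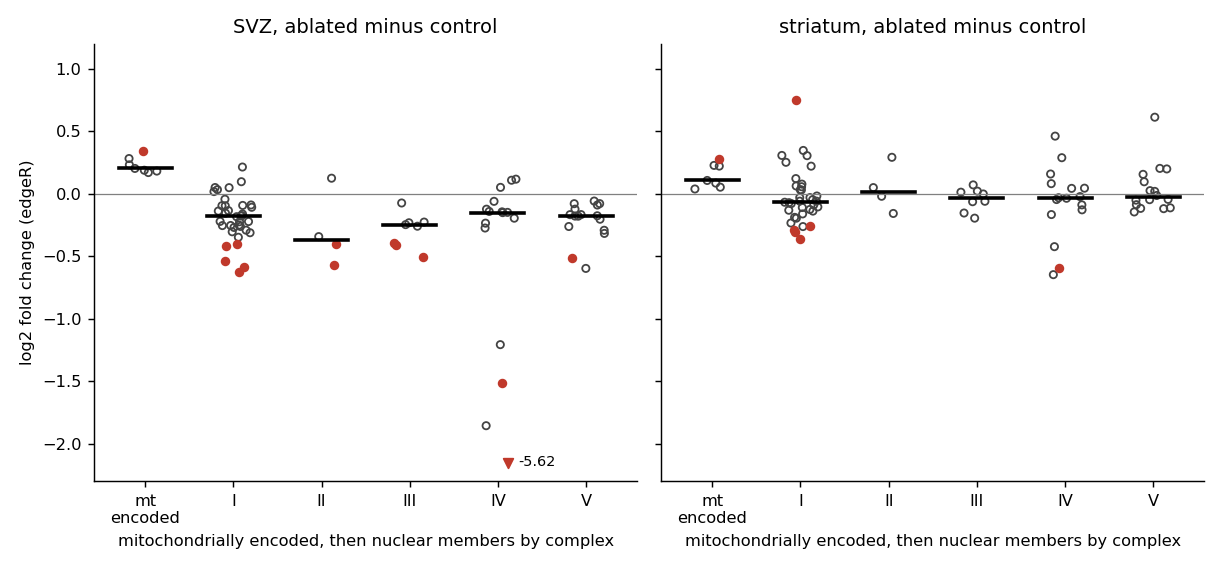
Log2 fold change of each member, ablated minus control, from edgeR, for the SVZ (left) and the striatum (right), with the mitochondrially encoded members first and the nuclear members by complex. Red filled points had an unadjusted p under 0.05, bars are medians, and the triangle marks Cox8b at -5.62, below the axis. In the SVZ the mitochondrial median is 0.20 and the medians of complexes I to V are -0.18, -0.37, -0.25, -0.15 and -0.18.

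The gene with the largest difference among mitochondrial members of the SVZ was mt-Nd6. It is the only member read from the other strand of the circle. How the counting treated the strand of a read is not given in the sources used here. The counts of mt-Nd6 may therefore hold reads of the opposite strand. mt-Nd6 stood at 2062, 2133, 2390, 1994 and 2355 CPM in ablated mice and at 881 to 2335 CPM in controls. Of the controls, P3 alone lay within the range of the ablated mice. Its log2 fold change was 0.34 (SE 0.156, adjusted p = 0.486). Without A2, A3, A5, G1 or T1 in turn, its unadjusted p was above 0.05. The next was mt-Nd1, with 0.28 (SE 0.142, adjusted p = 0.533), and mt-Nd5, mt-Nd2, mt-Cytb, mt-Co1 and mt-Nd4 had values from 0.17 to 0.23 with an adjusted p of 0.749 to 0.83. The 2 mitochondrial rRNAs, which are not members, were higher by more: mt-Rnr1 by 0.76 and mt-Rnr2 by 0.68 on the log2 scale, with an adjusted p of 0.318 and 0.347.

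As a share of all counts, the nuclear members made up 1.52% to 2.06% of an ablated SVZ library and 2.14% to 2.65% of a control library, without overlap. The mitochondrial members made up 2.70% to 3.98% and 1.66% to 4.23%, with overlap. The mitochondrial rRNAs took 9.23% to 13.0% of counts in ablated mice and 4.93% to 11.7% in controls. Taken as a share of counts outside the mitochondrial chromosome, the nuclear members were 1.79% to 2.45% in ablated mice and 2.34% to 2.95% in controls, and those ranges overlapped. The ratio of mitochondrial to nuclear members was 1.65 to 2.07 in ablated mice and 0.761 to 1.84 in controls.

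**Figure D3:**
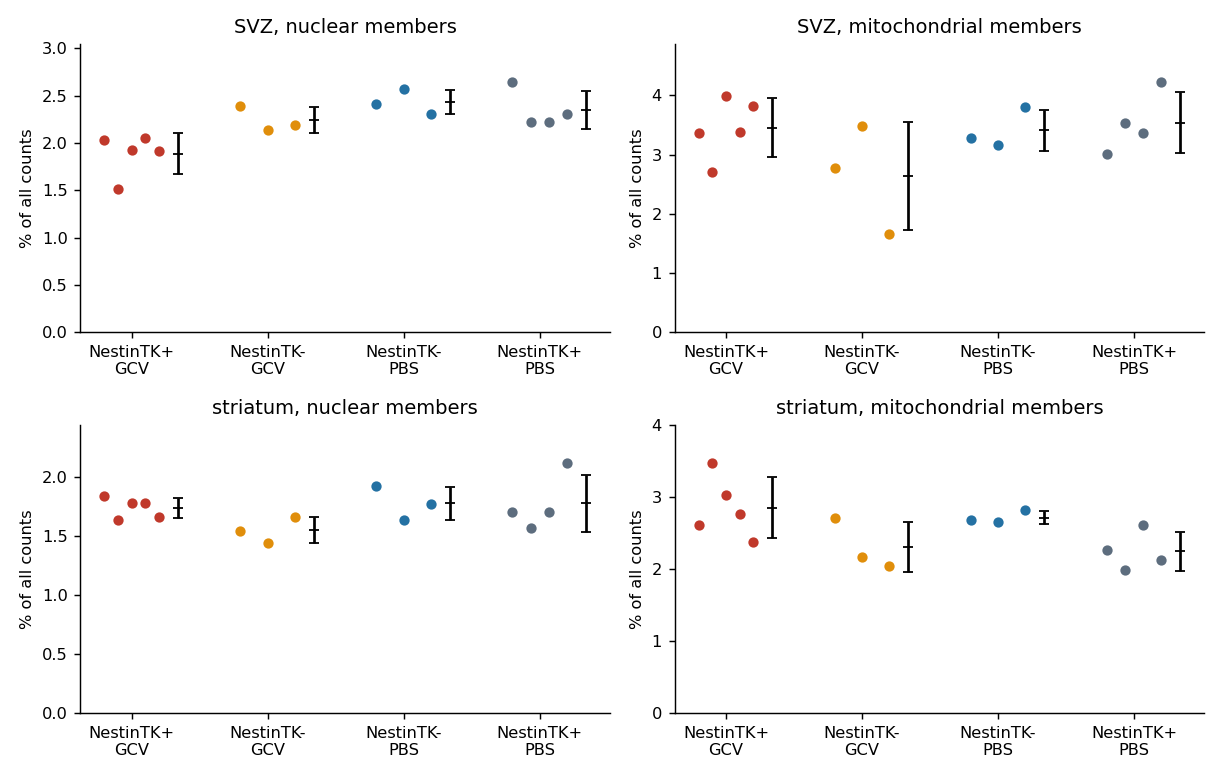
Share of all counts of a library (%) taken by the 80 nuclear members (left) and the 7 mitochondrial members (right) in the SVZ (above) and striatum (below). Points are libraries and bars are mean ± SD of the group. In the SVZ the nuclear share of the ablated mice (1.89% ± 0.217, SD, n = 5) lies below that of every control mouse.

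Other mitochondrial gene lists in the SVZ were described by the same counts. At an unadjusted p under 0.05, 6.09% of all genes were lower and 3.73% higher. The mitochondrial ribosome had 58 of 77 genes below 0 with a median of -0.21 and 6 lower, among them Mrpl2 (-0.90, adjusted p = 0.349). Of 48 assembly factors, 34 were below 0 (median -0.16), 6 were lower and 1 was higher. They included Atpaf2, which helps to build ATP synthase (-1.86, adjusted p = 0.347), and Cmc2, a complex IV factor (-1.47, adjusted p = 0.379). Other subunits and mobile carriers had 13 of 21 below 0 and none called. Of 17 genes of the citric acid cycle 1 was lower and 1 higher, of 16 glycolysis genes 1 was lower, of 25 genes of mitochondrial transcription and RNA upkeep 1 was lower, of 11 nuclear regulators 1 was lower, and of 13 genes of mitochondrial DNA replication none was called. None of these genes had an adjusted p under 0.05.

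Within the 4 groups of the SVZ, the ablated mice were compared with NestinTK- GCV mice, which differ from them by the transgene, and with NestinTK+ PBS mice, which differ by GCV. Against NestinTK- GCV mice, 6 of the 7 mitochondrial members were higher at an unadjusted p under 0.05 (median 0.55), against 4.18% of all genes, and 2 nuclear members, Uqcrc2 and Ndufc2, were lower, against 3.27% (nuclear median -0.11, 62 of 80 below 0). Against NestinTK+ PBS mice, 10 nuclear members were lower, against 4.4%, and no member was higher, against 2.73%, with medians of 0.10 for mitochondrial and -0.16 for nuclear members (72 of 80 below 0). The 10 were Ndufc2, Uqcrc2, Sdhc, Ndufs6, Sdha, Ndufa13, Uqcr10, Ndufb11, Cox8b and Cox6b2. Uqcrc2 was lower in both, by 0.55 (adjusted p = 0.665) and 0.54 (adjusted p = 0.618) on the log2 scale. Without T1, the mouse among the NestinTK+ PBS mice that was rich in Ttr, 2 members passed against NestinTK+ PBS mice. None of these members had an adjusted p under 0.05.

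The NestinTK- GCV mice enter the next comparison as well, so that it is not independent of the first. Set against NestinTK- PBS mice, they had 7 members lower at an unadjusted p under 0.05, against 4.72% of all genes, and none higher, against 2.93%. The mitochondrial median was -0.42, and mt-Nd2 (-0.67), mt-Nd6 (-0.55) and mt-Nd4 (-0.54) were lower. Nuclear members had a median of -0.19, with 65 of 80 below 0, against 51.8% of all genes. Among them Cox6b2 (-2.61), Uqcr10 (-0.52) and Uqcrh (-0.47) were lower, all with an adjusted p of 0.646. At the study's thresholds 2 nuclear members were lower, against 130 of all 16375 genes. As described above, Cox6b2 and Cox8b were high in P1 and P2, the Ttr-rich libraries of the NestinTK- PBS group. Cox8b, at 0 in all 3 NestinTK- GCV mice, was at 0 in P3 as well. NestinTK+ PBS mice against NestinTK- PBS mice had no member lower or higher, against 0.953% and 1.74% of all genes. Their nuclear median was -0.14, with 61 of 80 nuclear members below 0, against 50.4% of all genes. Most nuclear members were thus below 0 between groups without ablation as well. Both comparisons share the NestinTK- PBS mice as reference, and P1 and P2 of that group are Ttr-rich libraries. The part of choroid plexus tissue in these values was not tested.

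A single library weighed on these mitochondrial values. mt-Nd1 stood at 5329, 6814 and 3277 CPM in the NestinTK- GCV mice, at 6656, 6619 and 6954 CPM in NestinTK- PBS mice and at 7131 to 8018 CPM in ablated mice. Without G3, the mitochondrial median was 0.27 in place of 0.55 for ablated against NestinTK- GCV mice and -0.15 in place of -0.42 for NestinTK- GCV against NestinTK- PBS mice. Without G2 these medians were 0.85 and -0.73. The interaction of transgene and GCV, which asks whether GCV went with a different change in mice with the transgene, was higher for mt-Nd6 (0.85), mt-Nd2 (0.77) and mt-Nd1 (0.59), against 2.73% of all genes, and lower for Uqcrc2 (-0.68), against 2.36%, with an adjusted p of 0.942 each. The mitochondrial median of the interaction was 0.59, and it was 0.35 without G3.

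In the striatum, which lies beside the SVZ, the respiratory chain genes of ablated and control mice differed little. Of the 80 nuclear members 50 were below 0, with a median log2 fold change of -0.044, and all 7 mitochondrial members were above 0, with a median of 0.11. Without T4, the nuclear median was -0.012. All genes had a median of 0.0037, with 7630 of 15419 below 0. At an unadjusted p under 0.05, 5 members were lower (1 without A2 and 7 without A5), against 5.31% of all genes, and 2 were higher, against 5.19%. No member had an adjusted p under 0.05 (lowest 0.224; 0.182% of all genes did), none passed the study's thresholds (0.694% of all genes), and none separated the groups (0.532% of all genes).

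In the same libraries 3 of 4 oligodendrocyte markers were lower at an unadjusted p under 0.05, with a summed level of 1665 to 2265 CPM in ablated mice and 1604 to 4758 CPM in controls, and their part in these values was not tested.

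The 5 lower members were 4 of complex I and 1 of complex IV. Ndufv1, which oxidises NADH (chr19:4007384-4012806), stood at 81.1, 83.4, 59.6, 71.5 and 89.4 CPM in ablated mice and at 82.0 to 110 CPM in controls. The groups overlapped in P2 and P3 of the controls and in A2 and A5 of the ablated mice. Its log2 fold change was -0.36 (SE 0.114, adjusted p = 0.224), and -0.32 without the NestinTK- GCV mice. The accessory subunit Ndufb8 (-0.29, adjusted p = 0.393), the iron-sulphur core subunit Ndufs7 (-0.30, adjusted p = 0.444), Cox6a2, a muscle isoform that parvalbumin interneurons also express (-0.60, adjusted p = 0.446), and Ndufa11 (-0.26, adjusted p = 0.471) were the others. All 4 had an unadjusted p above 0.05 when A2 or A3 was left out. Cox6a2 stood at 6.17 to 17.9 CPM in ablated mice and at 10.0 to 29.1 CPM in controls. Of the 3 parvalbumin interneuron markers, Pvalb (-1.90, adjusted p = 0.214) and Kcnc1 (-0.49, adjusted p = 0.403) were lower at an unadjusted p under 0.05 in the same libraries. The third, Tac1, which is also a marker of spiny neurons, had 0.044. The summed level of the 3 markers was 390 to 525 CPM in ablated mice and 411 to 1085 CPM in controls. The control T4 stood apart, with Pvalb at 561 CPM and Kcnc1 at 418 CPM. Other controls stood at 17.0 to 121 CPM for Pvalb and 121 to 263 CPM for Kcnc1. In ablated mice Pvalb stood at 13.1 to 48.8 CPM and Kcnc1 at 114 to 190 CPM. The part of these markers in the value of Cox6a2 was not tested.

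The 2 higher members were Ndufs5, an accessory subunit of complex I at 5.65 to 13.1 CPM in ablated mice and 2.25 to 8.92 CPM in controls (0.75, SE 0.275, adjusted p = 0.328), and mt-Cytb. mt-Cytb stood at 7213, 8488, 7792, 7001 and 6814 CPM in ablated mice and at 4790 to 7564 CPM in controls (0.28, SE 0.11, adjusted p = 0.372). Their unadjusted p was above 0.05 without A2 for mt-Cytb and without A4 for Ndufs5. mt-Nd1 had 0.23 (adjusted p = 0.497) and mt-Nd4 0.22 (adjusted p = 0.617), and the other 4 counted mitochondrial genes lay between 0.040 and 0.11. Of the core subunits, Ndufs1 (0.032), Sdha (0.051), Uqcrfs1 (0.072), Cox4i1 (-0.035) and Atp5b (-0.086) had no unadjusted p under 0.05. Ndufb7, Ndufs8 and Uqcrh came next among the nuclear members at -0.19, -0.23 and -0.19 on the log2 scale, with adjusted p between 0.557 and 0.56, followed by Atp5l (0.61, adjusted p = 0.588).

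The isoform pairs of the striatum showed no difference past an unadjusted p of 0.05 other than Cox6a2. Cox7b2 passed the filter here at 0 to 2.38 CPM, and Cox8b stood at 0.284 to 2.33 CPM over all mice, with T4, the striatum library rich in Ttr (1351 CPM), at 2.14 CPM. The other lists are read against the 5.31% of all genes that were lower and the 5.19% that were higher at an unadjusted p under 0.05. The assembly factors had 2 of 49 genes higher, Bcs1l among them (0.73, adjusted p = 0.176), the citric acid cycle had 1 of 17 lower (Mdh2, -0.35, adjusted p = 0.28) and glycolysis 2 of 16 lower. The mitochondrial ribosome had 2 lower and 2 higher of 75. The mitochondrial rRNAs had a median log2 fold change of -0.061 and neither was called.

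The 3 control groups of the striatum were not alike, and the pooled values above average over them. Compared with NestinTK- GCV mice, the ablated mice had 19 members higher at an unadjusted p under 0.05, against 9.97% of all genes, and 11 lower, against 7.74%. Of these members, 11 had an adjusted p under 0.05, against 3.13% of all genes, and 10 passed the study's thresholds, all of them higher, against 2.1%. NestinTK- GCV mice against NestinTK- PBS mice, which share the NestinTK- GCV mice with the first comparison, gave 21 lower, against 9.08%, and 7 higher, against 7.05%. Of these, 9 had an adjusted p under 0.05, among them Sdhc (-0.82, adjusted p = 0.024) and Atp5a1 (-0.73, adjusted p = 0.0251), against 2.06%, and 10 passed the study's thresholds, all of them lower, against 2.46%.

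The groups without wild-type GCV mice differed less. Ablated against NestinTK+ PBS mice had 4 members higher, against 4.9% of all genes, and 2 lower, against 5.18%. The 4 were mitochondrial, mt-Cytb (0.33, adjusted p = 0.339), mt-Nd4 (0.37, adjusted p = 0.424), mt-Nd1 (0.29, adjusted p = 0.453) and mt-Nd6 (0.31, adjusted p = 0.474), and the 2 were Ndufv1 and Cox6a2. NestinTK+ PBS against NestinTK- PBS mice had mt-Nd6 (-0.54, adjusted p = 0.675) and mt-Nd4 (-0.37, adjusted p = 0.774) lower, against 2.46%, and Uqcrc1 (0.33, adjusted p = 0.75) higher, against 3.94%. No member had an adjusted p under 0.05 in either.

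Over those comparisons 11 nuclear members passed the study's thresholds at least once: Ndufa1, Ndufa4, Ndufb3, Ndufb6, Ndufs3 and Ndufs5, named for complex I, Sdhd of complex II, Uqcrfs1 of complex III, Cox7c of complex IV, and Atp5j and Atp5l of complex V. They were grouped after their values were seen, and the counts above describe how they were chosen. Ndufa4 is now known as a subunit of complex IV. Ndufs3, Uqcrfs1 and Sdhd are core subunits, and the others are small accessory or stalk subunits.

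The low values were in the 3 NestinTK- GCV mice. Ndufa1, a small membrane subunit of complex I (chrX:37187588-37191163), stood at 189, 113 and 270 CPM in G1 to G3 and at 585, 306 and 560 CPM in P1 to P3. The ablated mice stood at 568, 436, 544, 441 and 369 CPM and the NestinTK+ PBS mice at 438, 374, 425 and 447 CPM. Every NestinTK- GCV mouse lay below every other mouse. The gene was chosen by comparisons that include these mice, and the share of all genes that rank so was not counted. The log2 fold change of Ndufa1 was -1.34 (SE 0.244, adjusted p = 0.0101) for NestinTK- GCV against NestinTK- PBS mice and 1.31 (SE 0.226, adjusted p = 0.00381) for ablated against NestinTK- GCV mice.

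Ndufb3, of the same membrane arm (chr1:58586384-58595964), stood at 179, 119 and 233 CPM in the NestinTK- GCV mice, at 483, 321 and 428 CPM in NestinTK- PBS mice and at 268 to 509 CPM in the other 9 mice. Cox7c (chr13:86044816-86046904) stood at 110, 62.6 and 144 CPM, at 363, 178 and 328 CPM and at 191 to 333 CPM. Here too the NestinTK- GCV mice were the lowest 3 of 15, in genes chosen by comparisons that include them. The share of all genes that rank so was not counted. Their log2 fold changes for NestinTK- GCV against NestinTK- PBS mice were -1.21 (adjusted p = 0.012) and -1.46 (adjusted p = 0.0101). Ndufb6 (chr4:40270591-40279421) had -1.27 (adjusted p = 0.0101), with 41.3, 32.3 and 55.7 CPM against 131, 71.5 and 109 CPM.

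The interaction of transgene and GCV was higher at an adjusted p under 0.05 for Ndufa1 (1.51, SE 0.313, adjusted p = 0.0266), Ndufb3 (1.36, SE 0.294, adjusted p = 0.0326), Cox7c (1.55, SE 0.341, adjusted p = 0.0347) and Ndufb6 (1.31, SE 0.293, adjusted p = 0.0358), against 0.817% of all genes. At the study's thresholds 8 members were called, all higher, against 3.28%. At an unadjusted p under 0.05 there were 16 higher, against 8.42%, and 8 lower, against 6.65%. The mitochondrial members had an interaction median of 0.62, with mt-Nd6 (0.72, adjusted p = 0.113), mt-Cytb (0.62, adjusted p = 0.116), mt-Nd1 (0.62, adjusted p = 0.134) and mt-Nd4 (0.66, adjusted p = 0.19) higher at unadjusted p.

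Some mice outside the NestinTK- GCV group shared the pattern in part. Averaged over the 11 genes, the log2 level relative to the mean of NestinTK- PBS mice was -1.30, -1.65 and -0.67 in G1 to G3. It was -0.66 in P2, -0.49 in T2 and -0.43 in A5, and -0.044 to 0.41 in the other 9 mice. On this scale G3 and P2 stood side by side. Across 14975 other genes, the log2 level of a library relative to the mean of all 15 striatum libraries had a Spearman correlation with the GC content of the last 500 bases of the transcript of 0.051, 0.12 and 0.16 in G1 to G3, 0.099 in P2, 0.13 in T2 and 0.14 in A5. In the other 9 libraries it was 0.045 in T1 and -0.12 to -0.036 elsewhere. The genes of a library share its preparation and depth, and the part of GC content in the values of the 11 genes was not tested beyond a fit with GC offsets, described with the GC values of the members. Without G2, 3 members passed the study's thresholds for NestinTK- GCV against NestinTK- PBS mice in place of 10, 5 for ablated against NestinTK- GCV mice in place of 10, and 4 in the interaction in place of 8. The 3 NestinTK- PBS mice and G1 came from one series of mouse numbers and G2 and G3 from another, so that in this comparison treatment and number series are partly mixed.

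**Figure D4:**
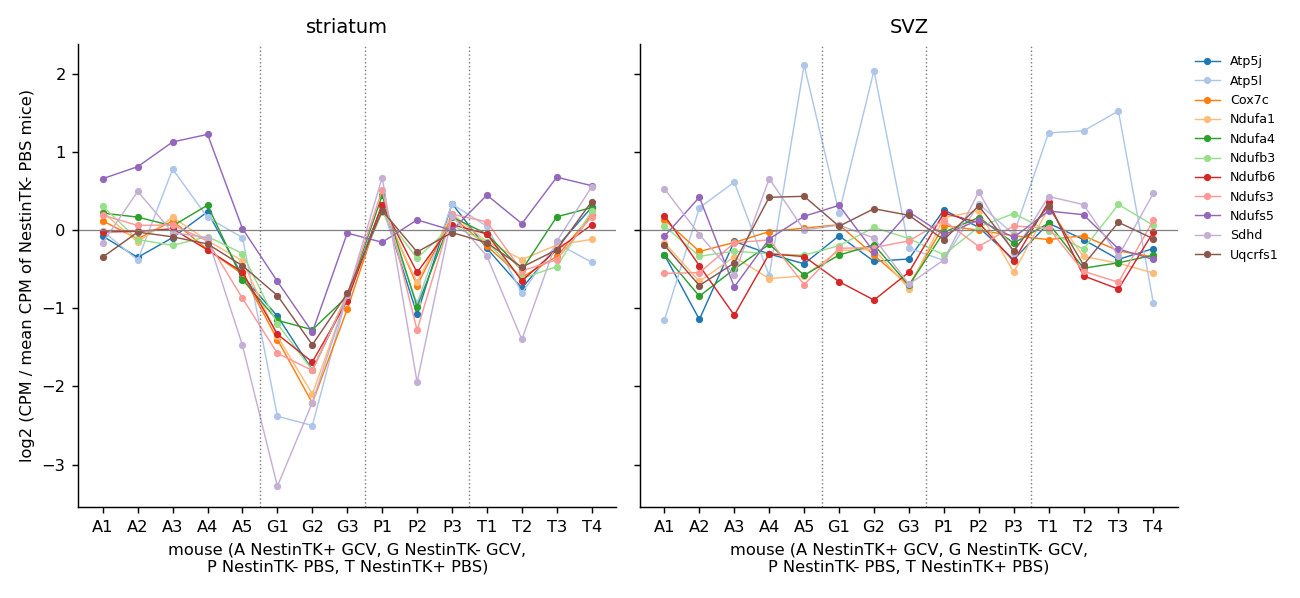
Log2 ratio of the CPM of the 11 genes in each mouse to their mean in the 3 NestinTK- PBS mice, in the striatum (left) and the SVZ (right). Points are libraries, lines join the values of a gene, and dotted lines separate the groups. In the striatum the 11 genes are low together in G1 to G3, and their mean in P2 (-0.66) is close to that in G3 (-0.67). In T2 and A5 their mean lies between 0 and that level, while the SVZ of the same mice shows no shared dip.

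The same genes in the SVZ of the same mice, measured with the other kit, did not repeat this. For NestinTK- GCV against NestinTK- PBS mice their median log2 fold change was -0.21 in the SVZ, 8 of 11 were below 0 and none had an unadjusted p under 0.05. In the striatum, where they were chosen, the median was -1.27.

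The 7 members that went the other way in NestinTK- GCV mice of the striatum at an unadjusted p under 0.05 were smaller in size: Cox7a2l (0.57, adjusted p = 0.0836), Ndufs8 (0.47, adjusted p = 0.135), Atp5k (0.45, adjusted p = 0.0828), Atp5sl (0.41, adjusted p = 0.284), Sdhb (0.35, adjusted p = 0.205), Uqcrh (0.33, adjusted p = 0.255) and Uqcr10 (0.29, adjusted p = 0.294). Genes of either direction differed in base composition, given here as a description of genes already chosen. Over the last 500 bases of the transcript, which QuantSeq reads, the 11 low genes had a median GC content of 43.2% (34.4% to 49.8%). The 6 higher ones with a transcript had 53.7%, and all nuclear members outside the 11, which include those 6, had 50.1%. All genes tested had a median of 43.8%, close to that of the 11 low genes. Across 79 nuclear members, the log2 fold change of NestinTK- GCV against NestinTK- PBS mice had a Spearman correlation of 0.50 and a Pearson correlation of 0.43 with this GC content. Across 14975 other genes the Spearman value was 0.13, and across 80 nuclear members in the SVZ it was -0.067. These genes were measured in the same libraries and are not independent of each other. NestinTK+ PBS against NestinTK- PBS mice gave 0.42. With an offset in each library for this GC content, 9 members in place of 10 passed the study's thresholds for NestinTK- GCV against NestinTK- PBS mice, and 10 and 8 as before for the other 2.

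Reads of some members can also fit other genes. Of 81 nuclear members with a transcript, 20 had a pseudogene that matched at least 100 bases at 95% identity or more, and 5 of the 11 genes were among them. How such reads were counted is not given in the sources used here, and their part in these values was not tested.

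Nuclear respiratory genes are known to be switched on through binding sites of NRF1, of ETS factors such as GABPA, and of YY1 near their start sites. Promoters (250 bases before to 50 bases after the start, RefSeq, GRCm38.p6) matched 66 nuclear members. The NRF1 core GCATGCGC, on either strand, was in the promoter of 15.15% of these genes and of 3.049% of all genes. The ETS core CCGGAAG was in 24.24% against 9.928%, and the YY1 core AAGATGGCG in 10.61% against 1.639%. None of these cores contains another. Among the 11 genes low in NestinTK- GCV mice of the striatum, 1, 5 and 1 held the 3 cores, and among the 11 of 13 genes lower in the ablated SVZ that had a promoter entry 0, 1 and 1. The promoters of Ndufs3, one of the genes low in the striatum of NestinTK- GCV mice, and of Uqcrh, which was higher there and lower in the ablated SVZ, are shown because both hold the ETS core, in capitals, while their fold changes in the striatum of NestinTK- GCV mice had opposite signs. They lie at chr2:90904672-90904971 and chr4:116075021-116075320, both on the minus strand.
Ndufs3: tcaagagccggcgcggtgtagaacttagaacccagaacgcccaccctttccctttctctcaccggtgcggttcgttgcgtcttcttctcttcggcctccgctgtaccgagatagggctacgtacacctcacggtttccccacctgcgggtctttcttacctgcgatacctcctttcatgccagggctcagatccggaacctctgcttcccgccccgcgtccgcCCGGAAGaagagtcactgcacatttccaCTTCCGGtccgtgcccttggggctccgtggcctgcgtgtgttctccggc
Uqcrh: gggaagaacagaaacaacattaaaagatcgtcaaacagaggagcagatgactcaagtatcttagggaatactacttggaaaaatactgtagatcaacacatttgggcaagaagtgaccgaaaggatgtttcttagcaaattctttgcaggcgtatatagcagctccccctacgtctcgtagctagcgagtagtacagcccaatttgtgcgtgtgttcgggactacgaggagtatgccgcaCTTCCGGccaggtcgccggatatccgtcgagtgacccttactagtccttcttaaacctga
A match of letters is not evidence of binding, and neither promoter was measured here.

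The difference between the tissues was tested within mice, as the change with ablation of the SVZ level minus the striatal level. Of the 85 members that passed in both tissues, 7 were lower in the SVZ at an unadjusted p under 0.05 (limma), against 6.79% of 14197 genes, and none was higher, against 3.27%. They were Ndufc2 (-0.67, SE 0.236, adjusted p = 0.388), Ndufs6 (-0.57, adjusted p = 0.455), Uqcrc2 (-0.45, adjusted p = 0.456), Sdha (-0.45, adjusted p = 0.468), Atp5s (-1.40, adjusted p = 0.484), Ndufs5 (-0.80, adjusted p = 0.484) and Sdhc (-0.59, adjusted p = 0.494). For Ndufs5 the difference came from the striatal value of 0.75 beside -0.042 in the SVZ. None had an adjusted p under 0.05 (lowest 0.388). Without A1, 3 members were lower. The median over nuclear members was -0.22 and over mitochondrial members 0.13, and over all genes it was -0.099. No mitochondrial member differed between the tissues at an unadjusted p under 0.05, and their differences lay between -0.055 and 0.28.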

How the data were processed

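The deposited files hold raw counts of reads per gene for 15 SVZ and 15 striatum libraries. The authors trimmed the reads with Trimmomatic, aligned them to mm10 (GRCm38) with STAR and made the deposited counts with featureCounts and Gencode M16 genes. The submitters' processing notes list Trimmomatic 0.36, for which the methods give another version, and STAR 2.5.3a. The strand setting and the treatment of reads with several matches are not given in the sources used here. Samples were grouped by the labels.

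Genes with over 1 CPM in 3 or more of a tissue's libraries were fitted with edgeR 4.0.16 in R 4.3.3 (TMM factors, quasi-likelihood test), ablated against all controls and by 4 group means, and p-values were adjusted over all genes tested (Benjamini-Hochberg). Unadjusted p-values, including those from edgeR, set a group difference against the spread between libraries. Each mouse gave 1 library per tissue, so this spread holds mouse, dissection, library preparation and counting together. No p was adjusted over the members. The study's thresholds are an unadjusted p of at most 0.01 with a 2-fold change. The difference between tissues was tested with limma 3.58.1 on the SVZ minus striatum log2 CPM (prior count 2) of each mouse. DESeq2 1.42.0, limma-voom and the other alternatives are given in the closing section. The fits were tested on simulated data. Copies were sought with BLAST+ 2.17.0+ among annotated GRCm38 transcripts. The genes, gene lists and tests were chosen with earlier results of these data known. Named were the 13 mitochondrial members, the 10 nuclear members of lowest p per tissue in ablated against control mice, core subunits (Ndufs1, Sdha, Uqcrfs1, Cox4i1, Atp5b), isoform pairs, and list genes at a p under 0.01. Other members, among them those of the group comparisons, were named after their values were seen. No columns were left unused (0).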

Additional observations from a re-analysis of the deposited data

Results flagged for a closer look

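Over 142 groups of 4 or 5 mice, 12 had a sample far from the others by the gap to its nearest neighbour as a share of the group's range, and chance gives about 1 in 20 such groups. T1 of the NestinTK+ PBS mice stood apart in the SVZ for mt-Nd6 (gap 0.9064 of the range, 1547 CPM against 1835 to 1865), Cox4i1 (0.8986, 1768 CPM against 1284 to 1333), Cox6b2 (0.9008, 70.7 CPM against 7.41 to 13.7) and Cox8b (0.9879, 49.3 CPM against 0 to 0.595). This is a library rich in the choroid plexus marker Ttr, and the part of that tissue in these values was not tested. Among the ablated mice of the SVZ, A4 stood apart for Cox4i2 (0.7261), A5 for Cox8b, where it alone had counts (1.0), and A2 for the share of counts in nuclear members (0.7366, 1.52%). In the striatum T3 stood apart for Ndufv1 (0.8434, 99.2 CPM), A2 for Ndufb7 (0.7521, 78.4 CPM) and Atp5b (0.7931, 415 CPM), T4 for Atp5b (0.9195, 682 CPM) and A5 for Cox8b (0.7767, 2.33 CPM).

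The interaction of transgene and GCV had an adjusted p under 0.05 (edgeR) for 4 striatal genes. Its log2 value was 1.51 for Ndufa1, 1.36 for Ndufb3, 1.55 for Cox7c and 1.31 for Ndufb6. GCV and the order of library numbering cannot be told apart, and without G2 fewer members passed the study's thresholds in the interaction. Counts were also present in nuclear copies of mitochondrial genes, which enter no comparison: up to 1648 in an SVZ library for Gm28438, up to 15 for Gm28661 and up to 24 for Gm29216.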

How the results depend on the processing

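Of the summaries of the members recomputed under alternatives, 283 kept close to their value and 29 moved. Among single genes, 25 gained and 50 lost an unadjusted p under 0.05, and 22 changed sign. Calls in the SVZ (ablated against control, unadjusted p) changed as follows. Members lower were 5 with number series as a covariate, without the Ttr-rich libraries or with GC offsets, and 1 against NestinTK- GCV mice alone. Members higher were 2 with DESeq2 size factors, the DESeq2 Wald test, limma-voom, 4 group means or GC offsets, 3 against NestinTK- GCV mice alone, and 0 without the Ttr-rich libraries or without NestinTK- GCV mice, where 2 passed the study's thresholds. With GC offsets, NestinTK+ GCV against NestinTK+ PBS gave 2 calls and a nuclear median of 0.049, NestinTK- GCV against NestinTK- PBS 4 calls, and the interaction a nuclear median of 0.23.

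In the striatum, members higher were 4 with limma-voom, 1 with no filter or without NestinTK- GCV mice, 5 with number series, 9 with 4 group means and 19 against NestinTK- GCV mice alone, where 12 were lower, 18 had an adjusted p under 0.05 and 10 passed the study's thresholds. Members lower were 3 with GC offsets and 2 without NestinTK- GCV mice. NestinTK+ PBS against NestinTK- PBS gave 6 calls with the DESeq2 Wald test.

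Some values changed sign, among them Cox6b2, which was one of the 13 members lower in the SVZ. In the SVZ these were, against NestinTK- GCV mice alone, Cox4i2 (0.098), Cox6b2 (0.35) and Ndufs1 (-0.037), with number series Cox6a1 (0.032), Cox7b (0.0070) and Atp5g2 (0.085), and with GC offsets Cox6a1 (0.015), Cox6a2 (0.049), Cox7a2 (0.074) and Uqcrfs1 (0.013). In the striatum they were, against NestinTK- GCV mice alone, mt-Nd2 (-0.13), mt-Co1 (-0.049), Cox4i1 (0.092), Cox6b1 (0.15), Cox7a1 (0.051), Atp5g3 (0.21) and Ndufs1 (-0.042), with GC offsets Atp5g1 (-0.014) and Ndufs1 (-0.017), and without NestinTK- GCV mice Cox8a (-0.086), Atp5g1 (-0.062) and Uqcrfs1 (-0.16). The cause was not tested.

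Leaving out each mouse in turn gave 0 to 2 members higher in the SVZ, 5 to 9 calls for NestinTK+ GCV against NestinTK- GCV, 2 to 11 against NestinTK+ PBS, 3 to 12 for NestinTK- GCV against NestinTK- PBS, 0 to 4 for NestinTK+ PBS against NestinTK- PBS and 2 to 7 in the interaction. In the striatum it gave 1 to 7 lower and 1 to 3 higher, 5 to 10 past the study's thresholds for NestinTK+ GCV against NestinTK- GCV, 3 to 9 calls and 0 to 1 past them against NestinTK+ PBS, 17 to 33 calls and 3 to 11 past them for NestinTK- GCV against NestinTK- PBS, 1 to 5 calls for NestinTK+ PBS against NestinTK- PBS and 4 to 10 past them in the interaction. The difference between tissues gave 3 to 8. Values ranged in the SVZ from -0.20 to 0.021 for Atp5g2, -0.64 to 0.15 for Cox6a2 and -0.21 to 0.060 for Uqcrfs1, and in the striatum from -0.038 to 0.11 for Atp5g1, -0.094 to 0.0039 for Atp5g3, -0.063 to 0.0072 for Cox4i1, -0.25 to 0.0041 for Cox7a1, -0.023 to 0.088 for Cox8a, -0.040 to 0.078 for Ndufs1, -0.015 to 0.17 for Uqcrfs1 and -0.030 to 0.12 for mt-Nd2. No paired analysis was possible because the groups share no mouse within a tissue, and the numbers given to mice here only name them. Striatal libraries are shallow, so low isoforms such as Cox7b2 rest on few counts.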
